A study of Mus musculus with 45 samples.

Results

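The G1 cyclins and their kinases comprised 8 genes, the D-type cyclins Ccnd1, Ccnd2 and Ccnd3, the E-type cyclins Ccne1 and Ccne2, and the kinases Cdk2, Cdk4 and Cdk6. They were chosen by name from textbook knowledge and not by a measured value. Of the 8 genes, 7 were named on the array, by 11 of its 42235 probes, and they were described among the 20037 named autosomal genes. Cdk2 had no probe of its own name, so its position was described from flanking probes only.

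D-type cyclins bind Cdk4 and Cdk6 when mitogens signal, and these complexes phosphorylate the retinoblastoma protein, which holds the E2F transcription factors in check. Freed E2F switches on the E-type cyclins, which activate Cdk2 and drive entry into S phase. Cyclin D1 is needed for normal growth of the mammary lobules in pregnancy, and its gene is a common target of amplification in human breast cancer, whereas Cdkn inhibitors and the retinoblastoma protein are lost in many tumors.

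DNA copy number was measured by array comparative genomic hybridization (CGH), in which tumor DNA and reference DNA carry different dyes and compete for the same probes, in 45 mammary tumors of female mice from 8 genetically engineered models, with 1 array per tumor. There were 5 tumors from BRCA1fl/fl;p53+/-;MMTV-cre mice, in which Cre deletes floxed Brca1 on a background with a single intact p53 allele (the BRCA1 model), and 6 transplanted tumors from p53fl/fl;MMTV-cre mice (the p53 transplant model). A further 5 tumors came from mice carrying the C3(1)/SV40 T/t-antigens transgene (the C3(1) model), 5 each from MMTV-Her2/neu, MMTV-H-Ras, MMTV-c-Myc and MMTV-Wnt1 mice, and 9 from MMTV-PyMT mice. The MMTV promoter directs Cre or the transgene chiefly to mammary epithelium, and in C3(1) mice the C3(1) promoter drives the viral antigens. Reference DNA was spleen DNA, no age was given, and each tumor is 1 sample. The tumors were bulk tissue, so a change in part of the tumor cells and a change diluted by host cells cannot be told apart. The tumors of a model carried different identifiers, but the labels did not state that each came from a separate mouse, so every p below measures the spread between tumors.

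All values are log2 ratios of tumor over reference after the median over the autosomes was subtracted from each array. The labels gave tumor as Cy5 and reference as Cy3, but the files ran the other way: 740 of 755 copy number intervals in the authors' own interval table (98.0%) carried the sign of Cy3 over Cy5, and a Brca1 probe averaged -3.97 ± 1.40 (SD, n = 5) in the BRCA1 tumors against 0.06 in the 40 others on that scale. Cy3 over Cy5 was therefore used throughout, which opposes the labels, and reading the dyes as labelled would turn the sign of each value below. The other Brca1 probe averaged 0.39 in the BRCA1 tumors.

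The median probe of an array had a signal of 3.67 to 16.7 times local background in Cy3 and 2.09 to 14.4 times in Cy5, and between 96.6% and 99.8% of probes per array were well above background in both dyes. The noise of a single probe was 0.158 to 0.476 (SD, log2). Each gene was therefore described by its own probes and by its locus, the mean of the 10 nearest other probes on the chromosome. These were taken by distance without regard to side, and the standard error of a locus from probe noise was 0.050 to 0.15. A locus was counted as gained at 0.2 or more and as lost at -0.2 or less, with no test attached. Labels of 5 arrays were in doubt. C3(1) tumor 4 and MMTV-Her2/neu tumor 3 had almost the same genome-wide profile (r = 0.916 across genes), as did C3(1) tumor 3 and MMTV-Her2/neu tumor 2 (r = 0.881), and the pairs next in order were MMTV-Her2/neu tumors 1 and 2 (r = 0.828) and MMTV-Her2/neu tumor 1 with C3(1) tumor 3 (r = 0.825). MMTV-Her2/neu tumor 1 was not counted among the 5. The Wnt1 probe read 0.07 in MMTV-Wnt1 tumor 1 and at least 1.07 in the other 4. Probes of Trp53, Myc, Erbb2 and Hras averaged between -0.28 and 0.17 in the models built on those genes, but these probes need not lie in the altered or transferred part.

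Gains and losses at the G1 loci were read first. Across the 7 genes with a probe and 45 tumors there were 315 gene and tumor pairs, of which 45 were gained (14.3%) and 60 were lost (19.0%), against 15.7% and 14.6% over all genes. The share gained was thus close to that of the whole genome, and the share lost was somewhat above it. At least 1 of the 7 loci was gained in 28 tumors and lost in 27. Without the 5 arrays in doubt, 36 of 280 pairs were gained (12.9%) and 45 were lost (16.1%). The share over all genes was not counted in the tumors left, so these 2 shares have no background beside them. The genes divided by direction. Ccnd2 was gained in 13 tumors and lost in 4, Ccnd3 was gained in 12 and lost in 1, and Cdk6 was gained in 8 and lost in 1. By contrast Ccnd1 was gained in 1 and lost in 17, Ccne1 was gained in 2 and lost in 15, and Cdk4 was gained in 3 and lost in 15. Ccne2 was about even, with 6 gains and 7 losses. The authors' intervals, another way of calling, held 45 gains and 29 losses over these genes, so the excess of losses over gains did not hold there. By them Ccnd1 was lost in 9 tumors, Ccne1 in 7 and Cdk4 in 8. No share over all genes was counted for these intervals either. Any D-type cyclin was gained in 20 of 45 tumors, and Ccnd2 and Ccnd3 were gained together in 5.

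**Figure D1:**
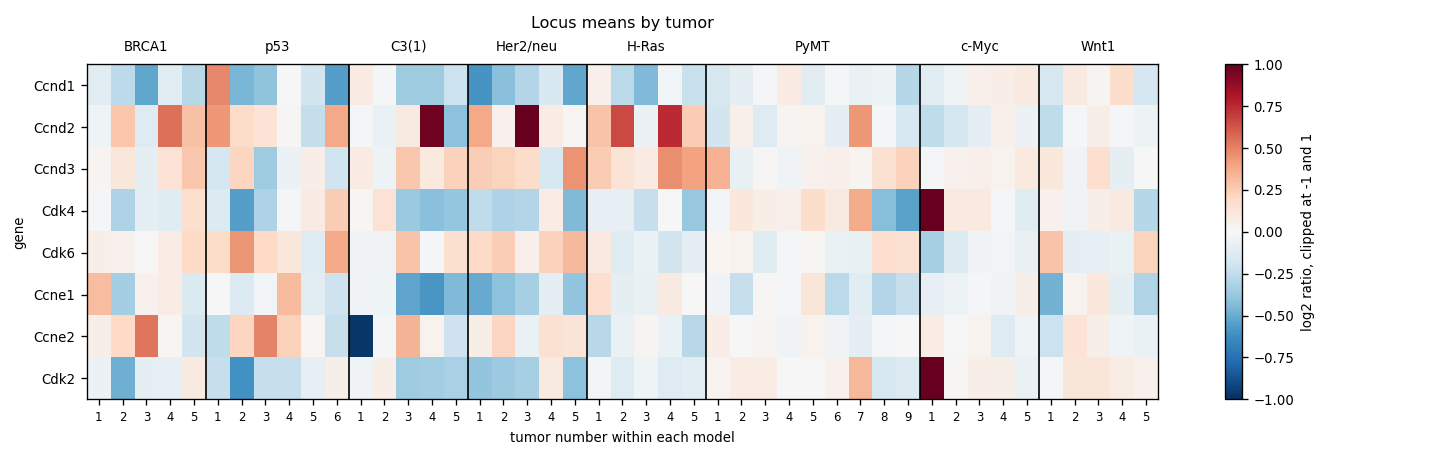
Copy number at the 8 G1 loci in 45 tumors, with genes as rows and tumors as columns grouped by model, coloured by the mean log2 ratio (tumor over reference) of the 10 nearest probes and clipped at 1 and -1. The row of Ccnd1 is mostly on the side of loss (17 lost, 1 gained) and those of Ccnd2 and Ccnd3 mostly on the side of gain (13 and 12 gained).

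The G1 loci were least often altered in MMTV-c-Myc tumors, where 1 of 35 pairs was gained and 2 were lost, beside 4.34% and 4.13% of all genes. In the p53 transplant tumors, which had the most altered genomes, 11 of 42 pairs were gained and 10 were lost, beside 29.1% and 26.8% of all genes. MMTV-Her2/neu tumors had 9 of 35 gained and 12 of 35 lost (25.7% and 34.3%), beside 16.6% and 23.0% of all genes, and C3(1) tumors had 5 gained and 12 lost (14.3% and 34.3%), beside 13.2% and 18.9%. Both of these models hold arrays in doubt. MMTV-PyMT tumors had 4 of 63 gained and 7 lost (6.35% and 11.1%), beside 11.8% and 6.19% of all genes, and 5 of these 7 losses were in tumors 8 and 9. In the other models the 35 pairs held 6 gains and 5 losses in BRCA1 tumors (beside 20.5% and 19.3% of all genes), 7 and 7 in MMTV-H-Ras tumors (22.2% and 15.6%), and 2 and 5 in MMTV-Wnt1 tumors (7.96% and 7.42%).

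Most of these changes were not limited to the gene. In 28 of the 45 gains and 37 of the 60 losses, the median of the rest of the chromosome, more than 10 Mb from the gene, was itself past the same threshold. The locus exceeded that median by 0.2 or more in 12 gains and lay below it by as much in 18 losses. A loss at Cdk4 came with a loss at Ccnd1 in 13 tumors and with a loss at Ccne1 in 11, although Cdk4 lies on chromosome 10 and the cyclins on chromosome 7. Ccnd1 and Ccne1, 107 Mb apart on chromosome 7, were both lost in 10 tumors, and their locus values correlated with r = 0.495 over the 45 tumors, which share models and arrays.

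**Figure D2:**
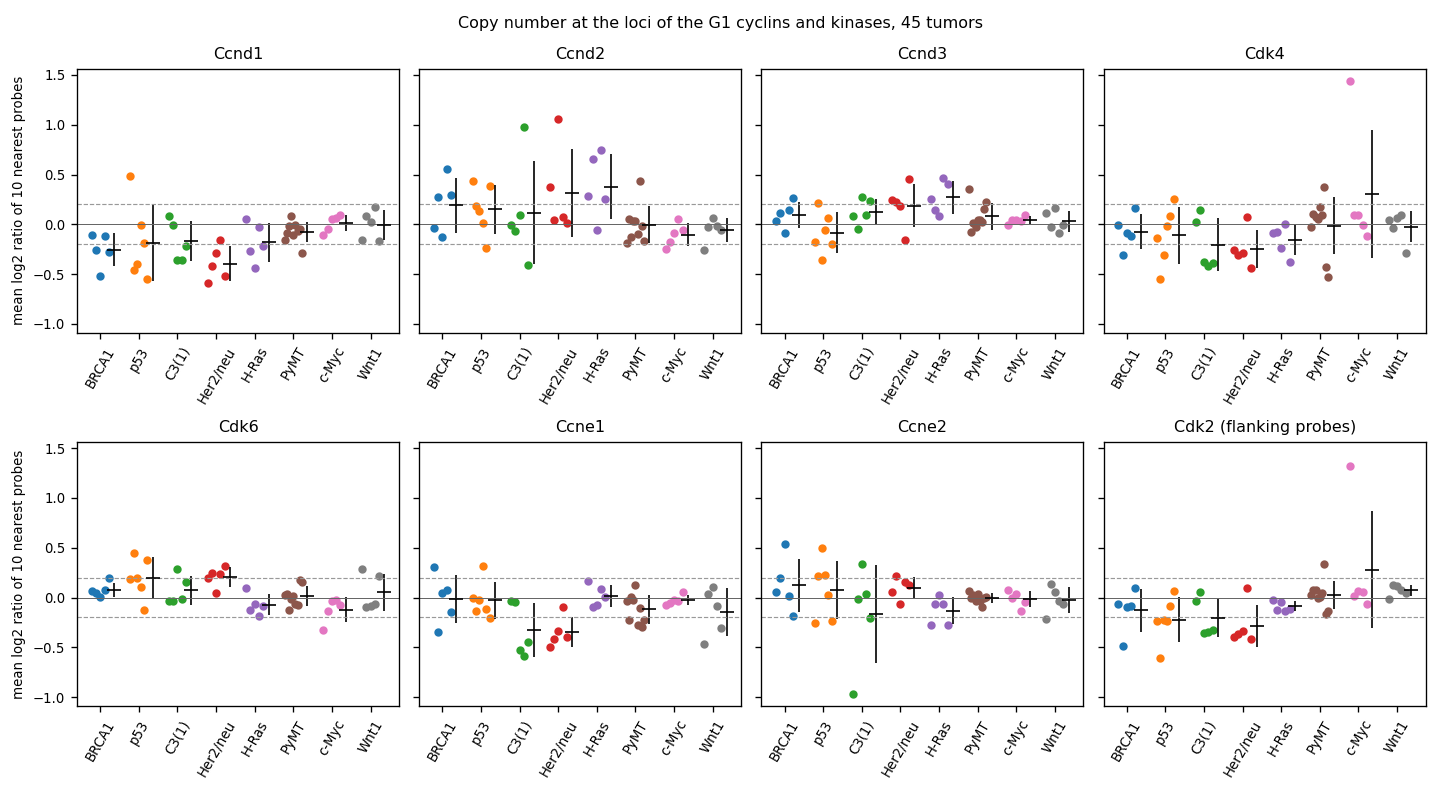
Locus log2 ratio (tumor over reference, mean of the 10 nearest probes) at each of the 8 genes, 1 panel per gene, with 1 point per tumor by model and the mean ± SD of the model to its right (n = 5, 6 or 9). The dashed lines mark 0.2 and -0.2. Spread within a model is as wide as the steps between models, and single tumors stand out at Cdk4 (MMTV-c-Myc tumor 1, 1.44) and Ccnd2 (C3(1) tumor 4, 0.98, and MMTV-Her2/neu tumor 3, 1.06).

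The question of whether the models differed was tested on the own probes of each gene with limma, by an F-test over the 8 models adjusted by Benjamini-Hochberg over all 20037 genes. Over all genes, 21.1% passed at an adjusted p of 0.05. Of the 7 G1 genes only Cdk6 passed (adjusted p = 0.0445), and Ccnd3 (0.0513), Ccne2 (0.0529), Ccnd1 (0.0568) and Cdk4 (0.0569) lay just outside, followed by Ccnd2 (0.162) and Ccne1 (0.193). This share is near the background. On the locus values Ccne1 (adjusted p = 0.0427) and Cdk6 (0.0394) passed in the same limma test, and 27.9% of all genes did. With slide or scan date as a block none of the 7 passed, where 8.15% and 6.84% of all genes did. In the order of model means at each of the 8 loci, no model differed from the next by more than the larger of their SDs.

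Cyclin D1, the partner of Cdk4 and Cdk6 most often altered in breast cancer, was measured by 1 probe at chr7:144741829-144741888 (mm8), and its 10 neighbours spanned 680 kb. The locus was lowest in MMTV-Her2/neu tumors, at -0.59, -0.42, -0.29, -0.15 and -0.52 in tumors 1 to 5 (mean -0.39 ± 0.18, SD, n = 5), so that 4 of the 5 were lost. A probe of the nearby gene Fgf15 is among the 10 and read -2.85, -1.34, -1.48, -0.16 and -2.60 in these tumors. It enters every Ccnd1 locus value and count of losses, and these were not computed without it. BRCA1 tumors followed at -0.11, -0.26, -0.52, -0.12 and -0.27 (mean -0.26 ± 0.17), and MMTV-c-Myc tumors lay at 0.01 ± 0.08. The MMTV-Her2/neu values overlapped those of the BRCA1 tumors and lay below all MMTV-c-Myc values, which ran from -0.10 to 0.09. The 1 gain was in p53 transplant tumor 1, at 0.48. No tumor had an amplified Ccnd1 locus. In 12 of the 17 tumors with a loss, the rest of chromosome 7 was lost as well.

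The Ccnd1 probe itself was far lower than its neighbours in a set of tumors. It read -1.66 or less in 7 of 45 tumors, and between -0.96 and 0.53 in the other tumors. The 7 were MMTV-Her2/neu tumors 1, 2 and 5 (-2.17, -2.12 and -2.77), p53 transplant tumors 5 and 6 (-1.81 and -2.45), MMTV-H-Ras tumor 3 (-1.66) and BRCA1 tumor 3 (-1.82), where the locus values were between -0.59 and -0.19. These 7 tumors belong to 4 models, and in each of these models other tumors did not show it. Own probe minus neighbours, tested against 0 with limma in each model, gave -1.02 in MMTV-Her2/neu tumors (adjusted p = 0.0173, where 2.46% of all genes were called lower) and -0.73 in p53 transplant tumors (adjusted p = 0.0135, where 23.7% were). Across the 8 models together, 2 of the 7 genes passed this test, Ccnd1 (limma F-test, adjusted p = 0.0101) and Cdk6, beside 51.9% of all genes.

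The probes around Ccnd1 allowed a closer look. The nearest probe of Fgf15, a fibroblast growth factor gene near Ccnd1, 35.7 kb to the proximal side, read -2.98 to -1.34 in the same 7 tumors. It was in that range in 5 other tumors too, p53 transplant tumor 4 (-2.75), MMTV-PyMT tumors 5 and 7 (-1.54 and -1.60), MMTV-Her2/neu tumor 3 (-1.48) and MMTV-c-Myc tumor 1 (-1.34), where the Ccnd1 probe read -0.96 to 0.02. MMTV-PyMT tumor 6 lay at the edge of the range, at -1.338, with the Ccnd1 probe at -0.57. The low readings of both probes thus did not mark one set of tumors. The Oraov1 probe between them, 11.3 kb from the Ccnd1 probe, read -0.64 to 0.53. Over the 45 tumors the Ccnd1 probe correlated with that of Fgf15 (r = 0.837) and not with that of Oraov1 (r = -0.07), 3 probes that share arrays. In 6 of the 7 tumors the probe between the other two was above -0.2, and in MMTV-H-Ras tumor 3 it was at -0.64. In the 7 tumors the Cy3 signal of the Ccnd1 probe was only 2.33 to 4.14 times its local background, although it was scored well above background. With background correction by normexp, a model that removes background without plain subtraction, the 7 values became -0.76 to -0.16, and the MMTV-Her2/neu difference from the neighbours became 0.014. Leaving out MMTV-Her2/neu tumor 1, 2 or 5 in turn also ended that call (limma adjusted p = 0.102, 0.138 and 0.175), as did leaving out the 5 arrays in doubt (-1.06, limma adjusted p = 0.199) or scan date as a block (0.183). The F-test over the 8 models ended with slide (limma adjusted p = 0.0683) or scan date (0.293) as a block. The authors' interval table held a lost interval of 3 probes there, chr7:144705953-144742029, in BRCA1 tumor 3 (-1.56) and MMTV-H-Ras tumor 3 (-2.05). In MMTV-Her2/neu tumors 1, 2 and 5 the lost interval at Ccnd1 covered 3056 probes, and p53 transplant tumors 5 and 6 had none.

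Cyclin D2, which acts beside cyclin D1 in G1, was measured by 3 probes between chr6:127094255 and chr6:127113965, and its locus was gained more often than that of any other member. The MMTV-H-Ras tumors had the highest mean, with 0.29, 0.66, -0.06, 0.74 and 0.25 in tumors 1 to 5 (0.38 ± 0.33, SD, n = 5), so 4 of 5 were gained, in a model where 22.2% of all genes were gained. MMTV-Her2/neu tumors averaged 0.31 ± 0.44 and BRCA1 tumors 0.19 ± 0.28, with 3 gains among the latter, and MMTV-c-Myc tumors lay lowest at -0.10 ± 0.12. The MMTV-H-Ras values overlapped those of these models except that 4 of them lay above all MMTV-c-Myc values. In all 13 tumors with a gain the gained run held at least 30 probes, and in MMTV-H-Ras tumors 2 and 4 and MMTV-PyMT tumor 7 it covered at least 50% of chromosome 6. In 10 of the 13 the rest of chromosome 6 was gained as well, also where the run was shorter. Over all tumors the models did not differ by the test (limma adjusted p = 0.162). Without the 5 arrays in doubt they did (adjusted p = 0.0456, beside 11% of all genes), with MMTV-H-Ras higher than the mean of the other models by 0.43 (limma adjusted p = 0.0467, where 1.43% of all genes were called higher).

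The highest Ccnd2 values were in C3(1) tumor 4, with 1.14 by its own probes and 0.98 at the locus, and MMTV-Her2/neu tumor 3, with 1.03 and 1.06. These are the near-identical arrays, so they may count as 1 observation. The gained runs around Ccnd2 were 4.77 and 4.83 Mb long. Ccnd2 was not the summit of the chromosome in either array. The highest locus on chromosome 6 was that of Lrmp, 18.0 Mb distal, at 4.81 and 4.88.

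**Figure D3:**
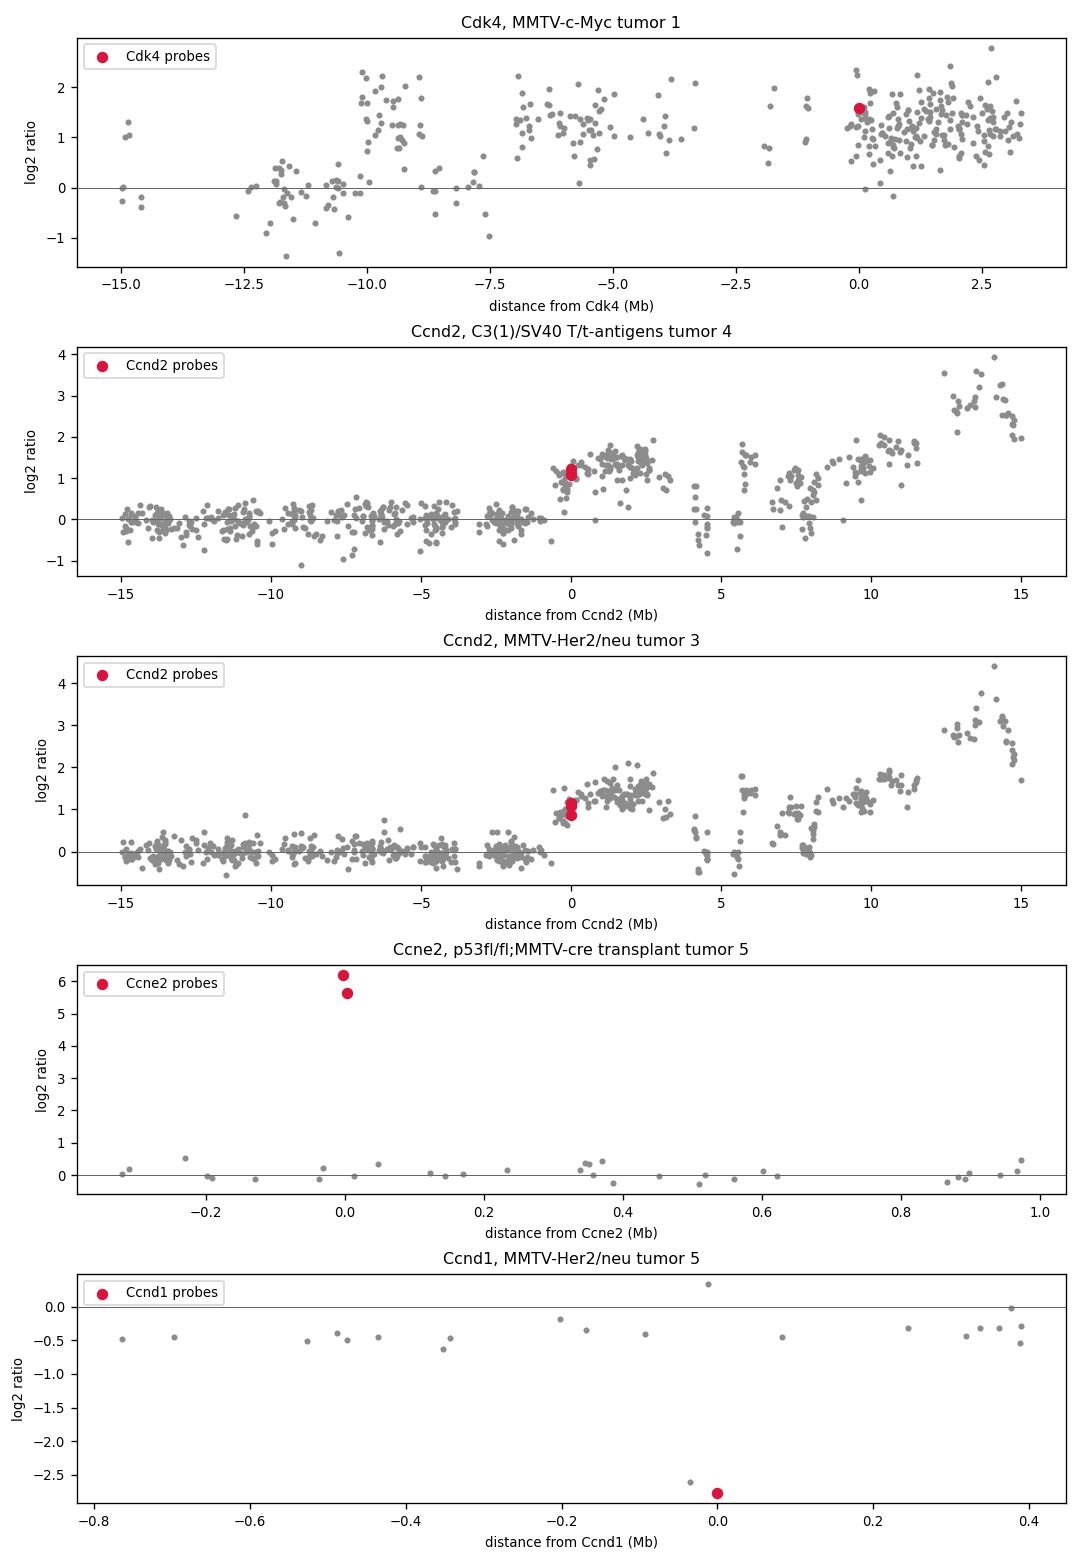
Log2 ratio of single probes (tumor over reference) against distance in Mb from the gene, in 5 panels: Cdk4 in MMTV-c-Myc tumor 1, Ccnd2 in C3(1) tumor 4 and MMTV-Her2/neu tumor 3, Ccne2 in p53 transplant tumor 5 and Ccnd1 in MMTV-Her2/neu tumor 5, with the gene's own probes in red. Cdk4 and Ccnd2 lie within broad raised stretches, while the 2 Ccne2 probes (6.19 and 5.63) and the Ccnd1 probe (-2.77) stand apart from the probes beside them.

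Cyclin D3, the D-type cyclin best known from lymphocytes, was measured by 1 probe at chr17:47059984-47060036. Its own probe was highest in MMTV-H-Ras tumors, at 0.21, 0.50, 0.37, 0.40 and 0.82 in tumors 1 to 5, while all tumors together ran from -0.33 to 0.82 with a median of 0.13. All 5 were above that median, and they overlapped the values of several other models. Their mean was above that of the other 7 models by 0.36 (SE 0.10, limma adjusted p = 0.0375), a direction in which 2.98% of all genes were called. The locus pointed the same way at 0.26, 0.14, 0.08, 0.47 and 0.40, with a difference of 0.20 (limma adjusted p = 0.0628). The call did not hold with slide (0.145) or scan date (0.243) as a block, without the 5 arrays in doubt (0.0734) or without MMTV-H-Ras tumor 2, 4 or 5. Normexp flattened 3 arrays, MMTV-H-Ras tumor 2 and MMTV-PyMT tumors 3 and 5, and without these it gave 0.34 (limma adjusted p = 0.611). At the locus the p53 transplant tumors were lower than the other models by 0.20 (difference -0.20, SE 0.07, limma adjusted p = 0.0486, where 5.41% of all genes were called lower), with a lowest value of -0.36, a median of -0.12 and a highest of 0.21. None of the 12 gains at Ccnd3 exceeded the rest of chromosome 17 by 0.2.

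Cdk4, the kinase of the D-type cyclins, was measured by 1 probe at chr10:126470234-126470293, which also lists an accession of another gene. In MMTV-c-Myc tumor 1 the probe read 1.58 and the locus 1.44, against -0.12 to 0.10 at the locus in the other 4 tumors of that model, and the rest of chromosome 10 was at -0.02. A locus of 1 or more was otherwise seen among the 315 pairs only for Ccnd2 in MMTV-Her2/neu tumor 3, and 0.23% of pairs over all genes were that high. The gained run was chr10:118821130-129759311, which is 10.9 Mb and 283 probes long. It also covered the position of Cdk2 (1.33). The highest locus in the run was that of Cd63 at 1.68, 1.84 Mb distal of Cdk4. The authors' interval table held a wider gained interval there, chr10:116352487-129759454, of 338 probes at 1.26. Mdm2, the gene of the ubiquitin ligase that degrades p53, lay 9.37 Mb proximal of Cdk4, outside the run but within that interval, with a locus of 1.17 (named after its values were seen).

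The Cdk4 locus was lost in 15 of 45 tumors, with a median of -0.03 over all of them. Losses were seen in 4 of the 5 MMTV-Her2/neu tumors, at -0.26, -0.31, -0.29, 0.07 and -0.44 in tumors 1 to 5 (mean -0.25 ± 0.19, SD, n = 5), and C3(1) tumors averaged -0.20 ± 0.26. In 10 of the 15 losses the rest of chromosome 10 was also lost. The own probe of Cdk4 exceeded its neighbours in MMTV-Wnt1 tumors by 0.36 (limma adjusted p = 0.0251, where 1.84% of all genes were called higher), from own values of 0.24, 0.18, 0.55, 0.27 and 0.43 beside locus values of 0.05, -0.03, 0.06, 0.09 and -0.29. Each of the 5 own values was above its locus. Leaving out tumor 2, 3, 4 or 5 of this model ended that call (limma adjusted p = 0.0504 to 0.148), as did slide (0.123) or scan date (0.262) as a block and normexp (0.0693).

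Cdk6, the second kinase of the D-type cyclins, was measured by 2 probes at chr5:3426774-3426833 and chr5:3521473-3521532. Its locus was highest in MMTV-Her2/neu tumors, at 0.20, 0.24, 0.05, 0.23 and 0.32 in tumors 1 to 5 (0.21 ± 0.10, SD, n = 5). It was nearly as high in p53 transplant tumors, where the lowest was -0.13, the median 0.19 and the highest 0.44 (mean 0.20 ± 0.20). MMTV-c-Myc tumors were lowest, at -0.33, -0.14, -0.04, -0.03 and -0.07 (-0.12 ± 0.13), below all MMTV-Her2/neu values. In 6 of the 8 gains the rest of chromosome 5 was gained too, and no gain reached 0.5. In 5 of the 8 there was no gained run at the position of Cdk6 itself.

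The Cdk6 probes and their neighbours differed in MMTV-PyMT tumors. In those 9 tumors the own probes had a lowest value of -0.55, a median of -0.26 and a highest of -0.16, while the locus had -0.12, 0.01 and 0.17. The nearest probes beside them, 141 kb before and 13.8 kb after, read -0.64 to 0.24 and -0.40 to 0.43, each below 0 in 7 of the 9. Only the probe after is part of the locus, so own probes were compared with distal probes alone. Every tumor was lower by its own probes than at the locus, on average by 0.32 (difference -0.32, limma adjusted p = 0.00016, where 9.55% of all genes were called lower). In p53 transplant tumors the difference was -0.23 (limma adjusted p = 0.0071, where 23.7% of all genes were called lower). Under normexp, without the 3 arrays that it flattened, the MMTV-PyMT difference was -0.35 in 7 tumors and no longer passed (limma adjusted p = 0.0718). The F-test over models on the own probes, the only call of that kind among the G1 genes, was lost in 27 of the 45 fits that left out 1 tumor (limma adjusted p from 0.0185 to 0.0753 over all 45), and it also ended without the 5 arrays in doubt (0.0635).

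**Figure D4:**
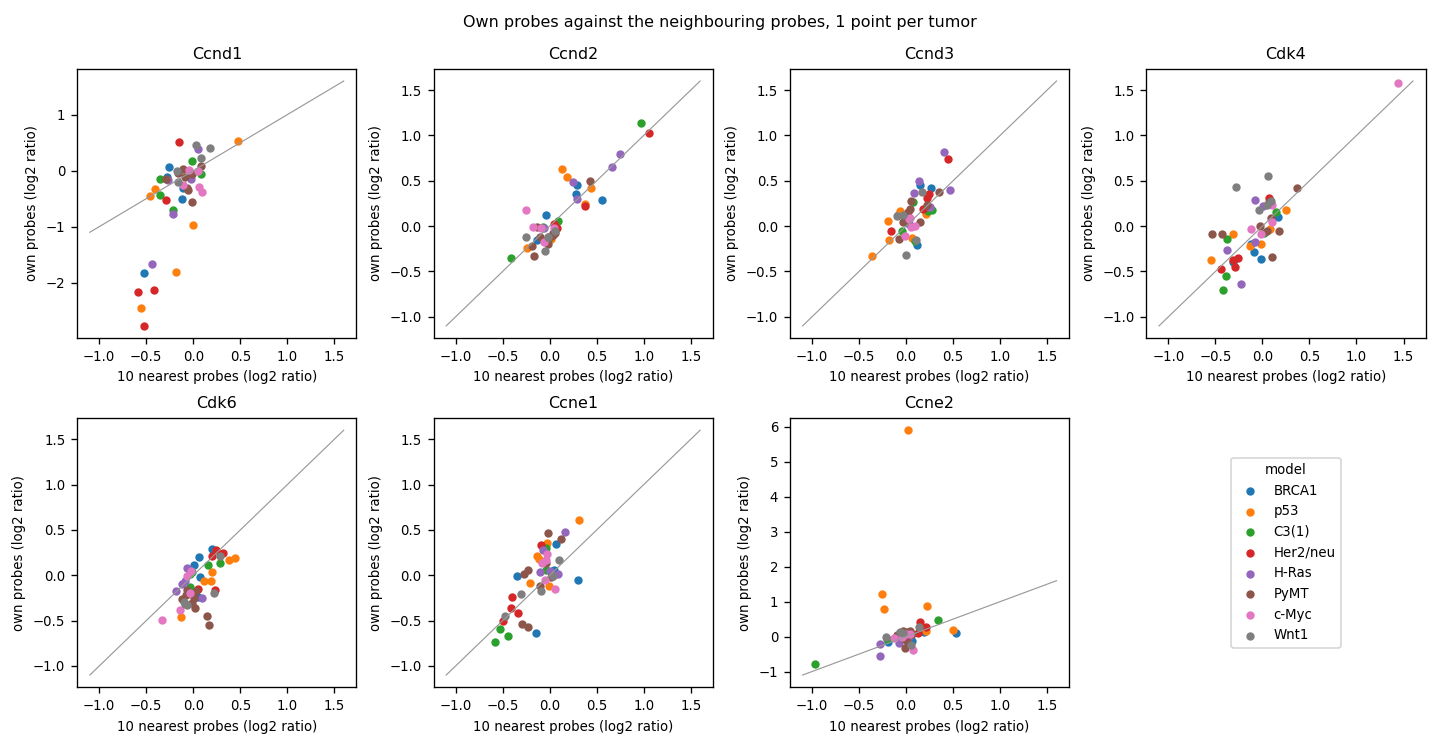
Own-probe log2 ratio of each of the 7 G1 genes with a probe (vertical axis) against the mean of its 10 nearest probes (horizontal axis), both tumor over reference, with 1 point per tumor in the colour of its model and a diagonal line where both are equal. Most points lie near the diagonal. The Ccnd1 probe falls far below it in 7 tumors (-2.77 to -1.66), and the Ccne2 probes lie far above it in p53 transplant tumor 5 (5.91).

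Cyclin E1, an activator of Cdk2, was measured by 1 probe at chr7:37809357-37809416. Its locus was down in 4 MMTV-Her2/neu tumors of 5, at -0.50, -0.41, -0.33, -0.09 and -0.40 in tumors 1 to 5 (-0.35 ± 0.15, SD, n = 5). It was lost in 3 of 5 C3(1) tumors, at -0.04, -0.04, -0.53, -0.58 and -0.44 (-0.33 ± 0.27). MMTV-H-Ras tumors lay highest, between -0.10 and 0.17 (0.02 ± 0.11), above 4 of the 5 MMTV-Her2/neu values. C3(1) tumors 3 and 4 are the arrays that match MMTV-Her2/neu tumors 2 and 3, so the losses of the 2 models are not fully separate. The locus lay below the rest of chromosome 7 by 0.2 or more in 7 of the 15 tumors with a loss. The 2 gains were in BRCA1 tumor 1 (0.31) and p53 transplant tumor 4 (0.32).

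Cyclin E2, the other activator of Cdk2, was measured by 2 probes at chr4:11121120-11121179 and chr4:11126470-11126529, and its own probes were high in the p53 transplant tumors. They read 1.23, 0.15, 0.19, 0.87, 5.91 and 0.79 in tumors 1 to 6 (lowest 0.15, median 0.83, highest 5.91). In the tumors of all other models the own probes stayed below 0.5. The mean of the p53 transplant tumors exceeded that of the other 7 models by 1.53 (SE 0.34, limma adjusted p = 0.0019), where 8.97% of all genes were called higher. Without tumor 5 the difference was 0.65, the lowest of the fits that left out 1 tumor, and the adjusted p over these fits ran from 0.000436 to 0.00278.

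The neighbours of Ccne2 did not share this. The locus read -0.26, 0.21, 0.50, 0.23, 0.02 and -0.23 in the same 6 tumors, and its difference from the other models was 0.09 (limma adjusted p = 0.537). In tumor 5, where the own probes were at 6.19 and 5.63, the nearest probe of Trp53inp1 at 29.4 kb read 0.23 and that of Ints8 on the other side read -0.04. The Cy3 signals of the 2 probes were 204 and 399 times background, and the Cy5 signals of the reference were 2.55 and 5.87 times. Own minus neighbours was higher than 0 in the p53 transplant tumors by 1.44 (limma adjusted p = 0.000608), in a model where 18.7% of all genes were called higher, and by 0.56 without tumor 5. In tumor 5, 11 genes stood 5 or more above their neighbours, with Olfr137 the highest at 6.70 and Myc at 6.27. Such genes numbered 2 to 11 in each p53 transplant tumor, 0 to 4 in each BRCA1 tumor and 0 or 1 in each other tumor. A gain limited to the probes of Ccne2 and DNA that carries only the probed sequence cannot be told apart with these probes.

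At the locus, the lowest Ccne2 value was in C3(1) tumor 1, at -0.97 with -0.79 by its own probes. There the rest of chromosome 4 was at -0.91, and the lost run was 108 Mb long, so most of the chromosome was low. The highest value was 0.53, in BRCA1 tumor 3.

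Cdk2, the kinase of the E-type cyclins, has no probe named for it, and its position was read from probes of the genes beside it in the RefSeq gene order, Suox at chr10:128073348-128073405 and Pmel (named Si on the array) at 128116983 to 128122862. The 10 probes nearest to the midpoint averaged 1.33 in MMTV-c-Myc tumor 1, inside the run around Cdk4. They were lowest in MMTV-Her2/neu tumors, at -0.39, -0.37, -0.33, 0.09 and -0.41 in tumors 1 to 5 (-0.28 ± 0.21, SD, n = 5), and 12 tumors in all were lost there and 2 gained. The flanks lie 1.63 Mb from Cdk4, and their values followed it (r = 0.908 over 45 tumors, which share the chromosome and the array), so Cdk2 and Cdk4 are 1 observation here rather than 2.

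The within-slide fit used the 6 slides that held more than 1 model, with 19 arrays of 5 models. No G1 gene passed the F-test there, beside 0.354% of all genes. The MMTV-Her2/neu contrast on these slides called 8.93% of all genes lower and 3.69% higher. It was called for 3 members, Ccnd1 lower by 1.88 (difference -1.88, limma adjusted p = 0.0082), Ccne1 lower by 0.61 (difference -0.61, limma adjusted p = 0.0125) and Ccnd3 higher by 0.42 (limma adjusted p = 0.0319). These arrays include MMTV-Her2/neu tumors 2 and 3, whose labels are in doubt, and the Ccnd1 value comes from the probe with the low readings described above. BRCA1, MMTV-H-Ras and p53 transplant tumors were on slides of 1 model each, where slide and model cannot be told apart, and this touches the Ccnd2, Ccnd3 and Ccne2 contrasts and all 4 pathway contrasts given below.

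The rest of the G1 pathway was taken as 32 named genes, of which 26 had a probe. They were inhibitors, retinoblastoma and E2F family members, activating kinases and phosphatases, and the ubiquitin ligases that degrade cyclins and inhibitors. A cyclin and a kinase of S and G2 phase, Ccna2 and Cdk1, were listed with them. The F-test over models was passed by 6 of 26 in limma, beside 21.1% of all genes, which is again near the background. They were Fbxw7, which marks cyclin E for degradation (adjusted p = 0.0065), Cdk1, the mitotic kinase named Cdc2a on the array (0.0149), Cul1, a scaffold of the same ligase (0.0193), Mnat1, a subunit of the kinase that activates Cdks (0.0244), E2f8, a repressor of E2F targets (0.0403), and Cdkn1a, the p21 inhibitor that p53 induces (0.0440).

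In contrasts of 1 model with the others, 4 pathway genes were called, and all of them are named here. Fbxw7 was higher in BRCA1 tumors by 0.45 (limma adjusted p = 0.0226, where 2.34% of all genes were called higher), with a mean of 0.58 ± 0.14 (SD, n = 5), while at its locus the difference was 0.01 (limma adjusted p = 0.976). Cul1 was higher in MMTV-H-Ras tumors by 0.46 (limma adjusted p = 0.0229), with 0.55 ± 0.39 by its own probes and 0.51 at its locus, where the difference was 0.39 (limma adjusted p = 0.0214), and it lies on chromosome 6 as Ccnd2 does. E2f6, a repressor, was lower in MMTV-H-Ras tumors by 0.51 (difference -0.51, limma adjusted p = 0.0377, where 1.67% of all genes were called lower), while its locus differed by -0.10 (limma adjusted p = 0.544). Cdc25a, the phosphatase that activates Cdk2, was higher in p53 transplant tumors by 0.44 (limma adjusted p = 0.0050), and at its locus by 0.35 (limma adjusted p = 0.0024). With slide or scan date as a block the calls of Fbxw7 (limma adjusted p = 0.0551 and 0.148), Cul1 (0.112 and 0.228) and E2f6 (0.121 and 0.248) ended, and that of Cdc25a did not (0.0136 and 0.0263), although it ended with array weights (0.0559) and without p53 transplant tumor 3 (0.0521). None of the 4 passed under normexp. Among the inhibitors, Cdkn1a averaged 0.68 in MMTV-Her2/neu, 0.63 in MMTV-PyMT and 0.57 in p53 transplant tumors by its own probes, where the loci averaged 0.16, 0.01 and -0.18. Cdkn2a, which encodes p16 and p19Arf, was not called in any model. Its locus was lost in 4 of 5 BRCA1 tumors (mean -0.23 ± 0.23, SD, n = 5), where 19.3% of all genes were lost, and reached -0.92 in a C3(1) tumor. Chromosome 4, where Cdkn2a lies, was low over most of its length in C3(1) tumor 1, with an authors' interval of 2549 probes at -0.91. Rb1, the target of the G1 kinases, was not called either, and its locus was lost in 2 of 5 BRCA1 and 3 of 6 p53 transplant tumors, beside 19.3% and 26.8% of all genes.

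The genes on other chromosomes whose locus values over the 45 tumors were most like those of each member were listed as a description, with tumors sharing models and arrays. For Ccnd1 they were Neurog3 (r = 0.714) and 2010107G23Rik (0.704), both on chromosome 10, and for Ccne1 the transcripts AK078978 (0.703) and AK041185 (0.688), on chromosome 10 as well. Chromosome 10 also carries Cdk4, which was lost in the same tumors as Ccnd1 in 13 cases, the near-identical arrays among them. Cdk4 was most like Sgsh and Galr2 on chromosome 11 (0.692 each), and Cdk6 like Tacr3 on chromosome 3 (0.604). The Cdk4 locus had a single far value, 1.44 in MMTV-c-Myc tumor 1, and r without that tumor was not computed. Ccne2 was most like Umps on chromosome 16 (0.576), and Ccnd2 like Tef on chromosome 15 (0.494).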

How the data were processed

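Genomic DNA of 45 tumors was hybridised against reference DNA on 2-colour Agilent 44K arrays. The authors extracted features with Agilent Feature Extraction (9.5.1.1 per the file headers, 10.7 per the labels) on mouse build mm8. The deposited intensity of both dyes and the deposited log10 ratio of Cy5 over Cy3 per probe, already spatially detrended, background-subtracted and dye-normalised per the file headers, were used as given. The sign was turned and values changed to log2. The authors' deposited interval table holds log2 ratios of intervals and served as an alternative. Array samples carried the group their labels gave.

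Control spots and outlier flags were left out, probes of a gene averaged and each array centred on the autosomal median, with no loess or quantile step. The comparison of models used lmFit and eBayes of limma 3.58.1 (R 4.3.3), each model against the mean of the other 7, with Benjamini-Hochberg adjustment over 20037 genes, a threshold of 0.05 and all 45 tumors in the fit. The script was tested on simulated data. Gains and losses carry no test. Alternatives were normexp (offset 50; with and, as added after the data were seen, without the 3 arrays whose spread it flattened to under 0.2 of that of the processed values), density-peak centring, array weights, slide or scan date as a block, 20 neighbours, a threshold of 0.3, and leaving out each tumor or the 5 arrays in doubt. The genes and lists were chosen with earlier results of these data known. The text names all 8 members, every pathway gene past the F-test and, for likeness, the genes of highest r on other chromosomes, except a gene whose result is not reported here. The flanks used for Cdk2 were chosen after the files were seen. The precision is limited by the number of tumors per model.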

Additional observations from a re-analysis of the deposited data

Results flagged for a closer look

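In groups of 4 to 10 tumors, 120 sets of own-probe or locus values were checked for a single value far from the rest of its model, and 13 had one. Chance gives about 1 in 20 such sets. No value was left out for this reason.

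In MMTV-c-Myc tumor 1 the value stood apart at Cdk4, by its own probe (1.58) and locus (1.44), at the Cdk2 flanks (1.33) and, downwards, at the own probes of Ccne2 (-0.38). The first 3 come from 1 gained run.

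In MMTV-PyMT tumor 7 it stood apart at the Ccnd2 own probes (0.50) and locus (0.43) and at the Cdk2 flanks (0.33). The other 8 MMTV-PyMT tumors had Ccnd2 locus values of -0.18 to 0.05.

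Further single values were Ccnd2 by its own probes in C3(1) tumor 4 (1.14), a tumor whose array matches another, and in MMTV-Wnt1 tumor 5 (-0.27). Ccne2 by its own probes in p53 transplant tumor 5 (5.91) was beside a locus of 0.02. In MMTV-Her2/neu tumor 4 the Cdk4 own probe (0.31) and the Cdk2 flanks (0.092) were above those of the other 4 tumors. Among the MMTV-Wnt1 tumors, Cdk6 by its own probes was highest in tumor 1 (0.21), the tumor in which the Wnt1 probe was not raised.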

How the results depend on the processing

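Of the 7 G1 genes, 1 passed the F-test over models on own probes. The count was 0 with density-peak centring, 0 with slide or scan date as a block and 0 within slides, 0 under normexp without the 3 arrays it flattened, 2 on the 10 nearest probes and 7 with array weights, which called 55.8% of all genes. Leaving out 1 tumor gave 0 to 4. Contrasts called higher numbered 2, and 1 under normexp, with or without those 3 arrays, with either block and within slides, 0 on the 10 nearest probes, 4 with array weights and 1 to 2 without 1 tumor. Contrasts called lower numbered 0, and 1 on the 10 nearest probes, 3 with weights, 2 within slides and 0 to 1 without 1 tumor. Genes whose own probes differed from their neighbours numbered 2, and 1 under normexp, with or without those arrays, and with either block (slide 24.4% and scan date 8.54% of all genes), 4 with 20 neighbours, 5 with weights, which called 79.5% of all genes, and 2 to 3 without 1 tumor. The 45 gains became 24 and the 60 losses 35 at a threshold of 0.3, the authors' intervals held 45 gains and 29 losses, and leaving out 1 tumor gave 42 to 45 gains and 55 to 60 losses. With the dyes as labelled the calls were 0 higher and 2 lower, with 60 gains and 45 losses. The sign of each named difference turned, to -0.36 and -1.53 for the Ccnd3 and Ccne2 contrasts, and to 0.32 for Cdk6, 1.02 for Ccnd1, -0.36 for Cdk4 and -1.44 for Ccne2 against neighbours. The Ccnd1 difference in MMTV-Her2/neu tumors turned to 0.014 under normexp, with or without those arrays. That alternative was added after the data were seen. The causes were not tested, except that the dyes turn signs by construction. Own probes against neighbours were not run within slides. Probe signal a few times background limits low readings such as those at Ccnd1. No paired analysis was possible because the labels give no replicate numbers shared between models. Arrays that share a slide were compared in the within-slide fit.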
